A study of Mus musculus with 26 samples.

Results

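RNA was compared between basal cells of wild-type mammary glands at 12 months and at 3 months of age. The comparison holds the 4 libraries labelled wild type and basal at those ages, of 26 libraries in the series. At 12 months they come from the pools A1 and A2, and at 3 months from the pools F79 and F81. All mice were of the B6.129S1 strain and wild type at the Snai2 locus, and no treatment is named at either age. Glands were cut up and frozen before they were made into single cells, and each library holds cells of 3 mice that were mixed before the sort on EpCAM and CD49f (integrin alpha 6), with gates that the labels do not describe. The other wild-type libraries, luminal and stromal cells of the same pools, entered the fit for its estimate of spread and serve for comparison. The rest of the series, from mice null for Snai2, was used only to test how the results depend on it.

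The mammary epithelium is a double-layered tube. Its outer, basal layer is made of myoepithelial cells, which carry keratins 5 and 14, sit on the basement membrane through integrins and laminins, and contain smooth-muscle actin and myosin with which they squeeze milk out when oxytocin reaches its receptor. The layer also holds cells able to rebuild a gland on transplantation, and it is kept by the transcription factors p63 and Slug, the product of Snai2. The inner, luminal layer carries keratins 8 and 18 and holds both hormone-sensing cells and the progenitors of milk-secreting cells. The mammary gland of older mice is a model for how tissue composition and lineage identity change with age.

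The basal libraries held 3203664 and 8475262 counts at 12 months, against 5186916 and 16649904 counts at 3 months. Mitochondrial ribosomal RNA took 23.7% and 38.4% of them at 12 months, against 23.8% and 30.6% at 3 months. Of 45706 genes 14990 passed the filter on low counts and were tested. Levels are CPM, counts per 1e+06 counts of the scaled library, and each fold change is a log2 value, 12 over 3 months, with its standard error. Called genes had an adjusted p under 0.05 in the quasi-likelihood test of edgeR after Benjamini-Hochberg adjustment, from which all adjusted p-values below come. With 2 pools of each age, these p-values rest on the spread between libraries of the same group, estimated over all 12 wild-type libraries. The fit counts fractions of the same pool as independent. In bulk RNA fewer cells of a type and less RNA per cell cannot be told apart. The labels name no batch, and since each pool has 1 age, differences of handling between pools and age cannot be told apart.

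Marker genes bore out the basal label. Krt14, the keratin 14 gene (ENSMUSG00000045545, chromosome 11, 100203162 to 100207548, minus strand, GRCm38), measured 302 and 391 CPM at 12 months, against 715 and 627 CPM at 3 months, and Krt5 measured 318 and 449.9 CPM at 12 months, against 957 and 733 CPM at 3 months. In luminal libraries Krt14 lay at 5.91 and 9.09 CPM at 12 months, against 23.0 and 45.9 CPM at 3 months. All 4 basal libraries thus stood above the luminal ones. In stroma Krt14 lay at 2.25 and 88.5 CPM at 12 months, against 3.63 and 8.77 CPM at 3 months, so that the 12-month stromal library of pool A2 stood apart. Cdkn2a, the gene of the cell-cycle inhibitor p16 used as a mark of senescence, had 0 counts in each of the 4 basal libraries and could not be tested.

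Basal cells differed between the ages in 746 genes, of which 585 were higher at 12 months and 161 lower. The rises were 3.9% of the genes tested and the falls 1.07%. All 746 had no overlap between the ages, as did 7001 genes in all (46.7% of those tested). A lack of overlap, where it is given below for called genes, thus adds nothing to the call. The median log2 fold change over all tested genes was -0.01. The count depended on which libraries set the estimate of spread, given here as the biological coefficient of variation, which was 0.276 in the fit to the 12 wild-type libraries. With all 26 libraries of the series it was 0.485 and edgeR called 0 genes, while 1067 had an unadjusted p under 0.05, against 2877 in the 12 libraries. Without the luminal-basal and the stromal library of A5, a null pool, it was 0.403, and 55 genes were called, 50 higher and 5 lower. With only the 4 basal libraries it was 0.288 and 706 were called, and DESeq2 on the 12 libraries called 921. Leaving out 1 basal library gave 326 genes without A1, 296 without A2, 332 without F79 and 398 without F81. Of the 93 called genes that the rule of choice picked 27 kept the call in each of these 4 fits, namely Basp1, Bmp2, Clec2d, Dnajb9, Ehf, Erbb4, Fcgbp, Fosb, Hbegf, Hspa1a, Hspa1b, Hspa5, Itih2, Kit, Klf4, Lif, Lonrf3, Lsmem1, Mrvi1, Myo5c, Pdlim4, Pecam1, Sesn2, Slc16a10, Spns2, Tnf and Zbtb16. The others lost it in at least 1 of these fits, with 57 calls left without A1, 44 without A2, 53 without F79 and 44 without F81.

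**Figure D1:**
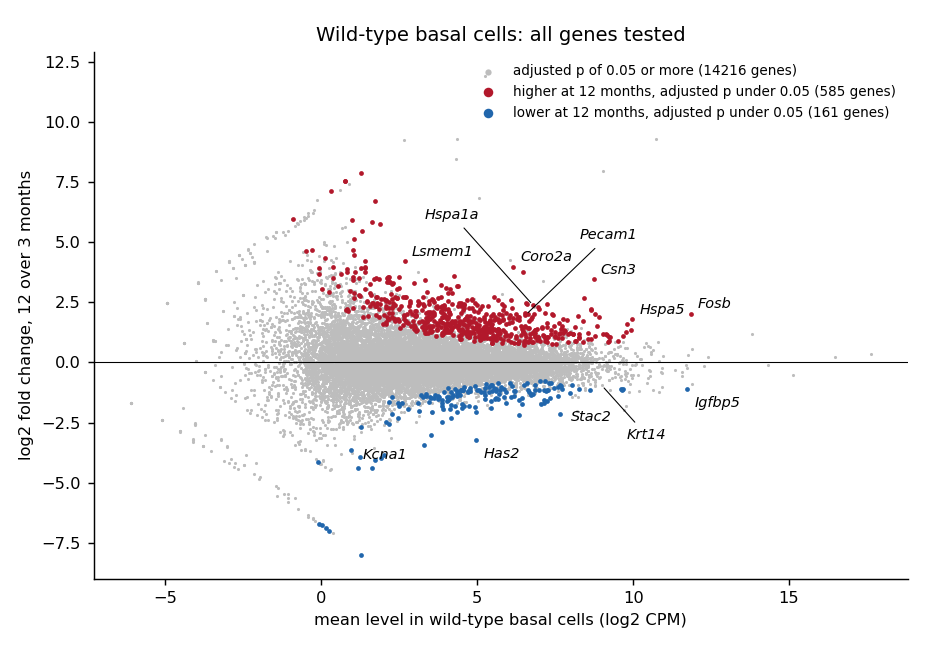
Log2 fold change between 12 and 3 months (vertical) against the mean level (horizontal, log2 CPM) for the genes tested in wild-type basal cells, with called genes in colour. The 585 higher genes outnumber the 161 lower ones, and 28 genes with 0 counts in all 4 basal libraries are not drawn.

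The 12 rises described first are the largest among called genes whose ages did not overlap and whose higher age averaged 10 CPM or more. Larger rises of genes under that level, such as Chac1, stand with their lists. Lsmem1 (ENSMUSG00000071342, chromosome 12, 40175493 to 40199490, minus strand), of a leucine-rich single-pass membrane protein, stood at 15.9 and 8.41 CPM at 12 months, against 0.372 and 0.750 CPM at 3 months. Its log2 fold change was 4.20 ± 0.59, adjusted p = 0.00105. Coro2a, of an actin-binding coronin, measured 203 and 64.0 CPM at 12 months, against 6.14 and 10.04 CPM at 3 months (3.98 ± 0.63, adjusted p = 0.00821). For these genes both 12-month libraries lay above both 3-month libraries, with A1 higher than A2. Lonrf3, of a ring-finger protein, had 44.4 and 27.2 CPM at 12 months, against 0.744 and 4.27 CPM at 3 months (3.59 ± 0.54, adjusted p = 0.00266). Erbb4, of the neuregulin receptor that acts in the making of milk-secreting cells, had 15.004 and 5.69 CPM at 12 months, against 0.744 and 0.866 CPM at 3 months (3.56 ± 0.55, adjusted p = 0.00199). Pkp2, of the desmosome protein plakophilin 2, had 18.6 and 17.7 CPM at 12 months, against 2.61 and 1.15 CPM at 3 months (3.44 ± 0.53, adjusted p = 0.00242). Their 12-month libraries again lay above the 3-month ones, with Pkp2 nearly level between A1 and A2.

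The rest of these 12 rises ran between log2 fold changes of 3.04 and 3.47. Csn3, of the milk protein kappa-casein, measured 1239 and 319 CPM at 12 months, against 47.3 and 92.4 CPM at 3 months (3.47 ± 0.74, adjusted p = 0.0310). Itih2, of a hyaluronan-binding serum protein, reached 16.8 and 12.2 CPM at 12 months, against 0.372 and 1.96 CPM at 3 months (3.31 ± 0.44, adjusted p = 0.000708). Pcdh17, of a protocadherin, measured 43.5 and 32.1 CPM at 12 months, against 5.77 and 2.94 CPM at 3 months (3.17 ± 0.58, adjusted p = 0.00560). Each of the 3 had its lower 12-month library above its higher 3-month library, as the choice of genes required. Myo5c, of a myosin that moves vesicles in secretory epithelia, reached 9.002 and 11.4 CPM at 12 months, against 0.558 and 1.5005 CPM at 3 months (3.103 ± 0.53, adjusted p = 0.00392). Slc16a10, of a carrier for aromatic amino acids, lay at 34.5 and 28.6 CPM at 12 months, against 2.61 and 4.62 CPM at 3 months (3.04 ± 0.44, adjusted p = 0.00139). Cxcl10 and Ifit1, genes induced by interferon, complete the 12 and are described with their list.

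The 12 falls were chosen by the same limit of 10 CPM and the same lack of overlap. Kcna1 (ENSMUSG00000047976, chromosome 6, 126640397 to 126646384, minus strand), of a voltage-gated potassium channel, measured 2.70 and 0.905 CPM at 12 months, against 19.7 and 15.6 CPM at 3 months (-3.42 ± 0.77, adjusted p = 0.0196). Has2, of the enzyme that makes hyaluronan, the large sugar polymer of the matrix, stood at 6.002 and 6.08 CPM at 12 months, against 59.7 and 54.1 CPM at 3 months (-3.23 ± 0.55, adjusted p = 0.00585). The pools of each age lay close together in Has2, and the ages lay far apart. Stac2, of an adaptor of calcium channels, measured 89.4 and 59.8 CPM at 12 months, against 323 and 338 CPM at 3 months (-2.15 ± 0.49, adjusted p = 0.0328). Jph2, of junctophilin, which ties the surface membrane to calcium stores in muscle cells, had 6.30 and 5.56 CPM at 12 months, against 39.6 and 19.9 CPM at 3 months (-2.32 ± 0.61, adjusted p = 0.0414). Mex3a, of an RNA-binding protein, had 32.7 and 25.7 CPM at 12 months, against 169 and 99.6 CPM at 3 months (-2.20 ± 0.38, adjusted p = 0.00460). In these genes no 12-month library reached a 3-month one. Wnt10a, of a secreted Wnt ligand made in the skin and mammary epithelium, lay at 3.30 and 5.56 CPM at 12 months, against 20.1 and 17.8 CPM at 3 months (-2.05 ± 0.53, adjusted p = 0.0370). Pdlim4, of a protein of actin stress fibres, lay at 6.90 and 8.67 CPM at 12 months, against 29.0 and 36.3 CPM at 3 months (-2.05 ± 0.36, adjusted p = 0.00423). Fras1, of a basement membrane protein needed for skin adhesion, lay at 4.20 and 7.89 CPM at 12 months, against 24.8 and 22.9 CPM at 3 months (-1.93 ± 0.46, adjusted p = 0.0236). Here too the 12-month libraries were the lower ones. Cntn2, Clec2d, Apeh and Kbtbd11 made up the 12, with log2 fold changes of -2.08 ± 0.45, -1.95 ± 0.30, -1.93 ± 0.47 and -1.84 ± 0.46.

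**Figure D2:**
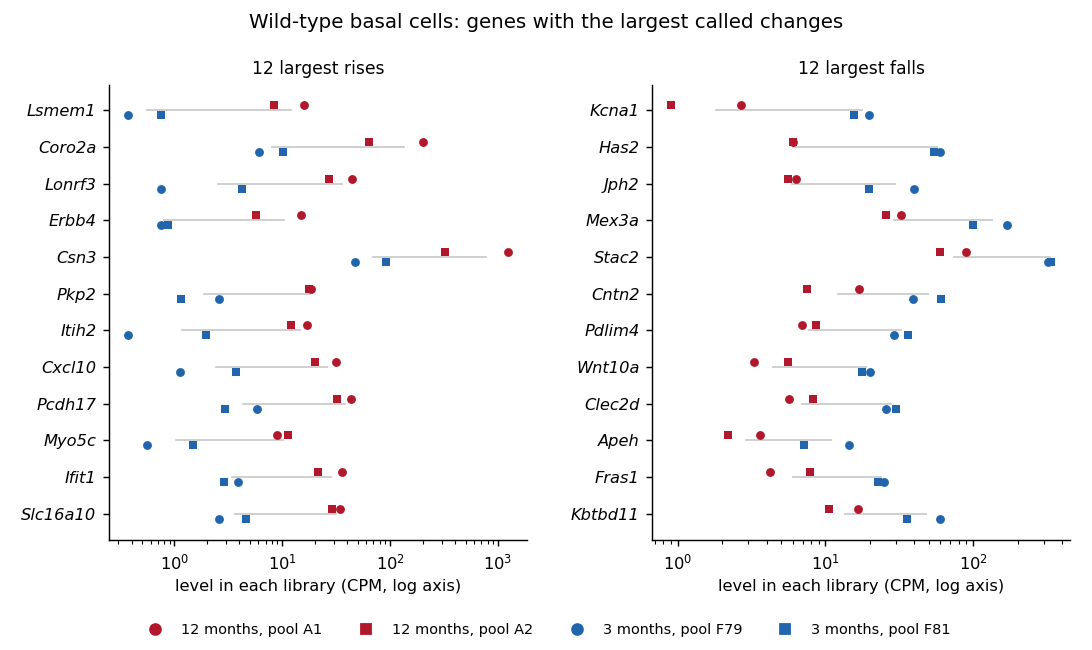
Levels (CPM, horizontal log axis) of the 12 genes with the largest rises (left) and the 12 with the largest falls (right) in each of the 4 wild-type basal libraries, with red for 12 months, blue for 3 months, and a grey line between the group means. In each gene shown the red points do not overlap the blue ones, as the choice of genes required.

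Of the immediate-early and heat shock genes, 6 rose. Immediate-early genes encode transcription factors that switch on within minutes of a stimulus, dissociation of tissue included, and heat shock genes encode chaperones for unfolded proteins. Hspa1a and Hspa1b encode the same inducible HSP70 chaperone from neighbouring genes that are near-identical copies. Their upstream sequences are shown because the pair moved alike and because reads of such copies can be split or dropped in counting. These are the 250 bases before the RefSeq start in GRCm38.p6, minus strand, 5′ to 3′, with the heat shock element core in capitals, chr17:34972157-34972406 for Hspa1a and chr17:34959239-34959488 for Hspa1b.
Hspa1a: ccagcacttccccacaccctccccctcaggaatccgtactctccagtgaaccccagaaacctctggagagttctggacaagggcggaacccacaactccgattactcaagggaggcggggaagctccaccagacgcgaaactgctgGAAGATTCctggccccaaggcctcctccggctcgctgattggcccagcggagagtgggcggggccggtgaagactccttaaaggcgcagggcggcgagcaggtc
Hspa1b: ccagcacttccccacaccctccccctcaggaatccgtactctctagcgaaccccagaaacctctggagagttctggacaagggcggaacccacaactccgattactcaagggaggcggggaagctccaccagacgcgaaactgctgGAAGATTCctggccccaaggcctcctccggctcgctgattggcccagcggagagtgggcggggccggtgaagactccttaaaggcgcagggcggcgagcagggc
Both windows held the core GAANNTTC, searched on both strands, from base 104 to base 97 before the start, and 247 of 250 positions were identical. Of 13173 promoter windows of genes tested here (10279 symbols matched), 4.96% held it. Of the 5 matched among the 6 immediate-early and stress genes that rose, 3 did. These 3 include both Hspa1a and Hspa1b, whose near-identical windows are not separate observations, and enrichment was not tested.

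Hspa1a stood at 205 and 166 CPM at 12 months, against 46.3 and 26.03 CPM at 3 months (2.37 ± 0.27, adjusted p = 0.000426). Hspa1b stood at 131 and 101 CPM at 12 months, against 19.7 and 18.8 CPM at 3 months (2.58 ± 0.30, adjusted p = 0.000433). How the counting split reads between these copies is uncertain, but both genes had each 12-month library far above the 3-month ones. Fosb (ENSMUSG00000003545, chromosome 7, 19302696 to 19310051, minus strand), of a subunit of the AP-1 transcription factor, measured 6492 and 5295 CPM at 12 months, against 1479 and 1406 CPM at 3 months (2.03 ± 0.30, adjusted p = 0.00158). Klf4, of a zinc-finger factor of epithelial differentiation, measured 656 and 672 CPM at 12 months, against 151 and 145 CPM at 3 months (2.17 ± 0.29, adjusted p = 0.000691). In both genes the pools of each age lay within a small margin of each other. Jun, the partner of Fosb in AP-1, measured 1433 and 1239.7 CPM at 12 months, against 519 and 362 CPM at 3 months (1.601 ± 0.26, adjusted p = 0.00265). Cyr61, of a matrix-bound growth regulator, measured 348 and 288 CPM at 12 months, against 143 and 109 CPM at 3 months (1.34 ± 0.27, adjusted p = 0.00920). These were the 6 called members of 25 tested immediate-early and stress genes, none of which fell. The list was mixed, with 16 positive and 9 negative log2 fold changes and a median of 0.34, beside -0.01 over all genes. Fos did not pass the test, at 762 and 852 CPM at 12 months, against 451 and 383 CPM at 3 months (0.95 ± 0.28, adjusted p = 0.0625), nor did Egr1 at 4782 and 4333 CPM at 12 months, against 3703 and 2456 CPM at 3 months (0.57 ± 0.30, adjusted p = 0.337), and Socs3 and Zfp36 lay at -0.62 ± 0.27 and -0.32 ± 0.35. The calls of the list numbered 5 to 7 when 1 basal library was left out.

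Genes of the unfolded protein response lay higher at 12 months, and a part of them rose. This response answers misfolded protein in the endoplasmic reticulum with more chaperone and more disposal machinery. All 13 tested members had positive log2 fold changes, with a median of 0.72, and 5 were called. Hspa5, of the chaperone BiP that senses misfolded protein, measured 1432 and 1696 CPM at 12 months, against 462 and 444 CPM at 3 months (1.79 ± 0.30, adjusted p = 0.00328). Dnajb9, of a co-chaperone of BiP, measured 191 and 174 CPM at 12 months, against 46.0 and 43.6 CPM at 3 months (2.03 ± 0.21, adjusted p = 0.000426). Chac1, of a glutathione-degrading enzyme downstream of ATF4, measured 3.00 and 6.21 CPM at 12 months, against 0.186 and 0.346 CPM at 3 months (3.92 ± 0.83, adjusted p = 0.0147). The 12-month libraries of Hspa5 and Dnajb9 agreed closely, and Chac1 rested on 1 and 6 counts at 3 months. Ddit3, of the factor CHOP, which acts in stress-induced cell death, measured 27.0 and 23.8 CPM at 12 months, against 13.2 and 7.16 CPM at 3 months (1.36 ± 0.32, adjusted p = 0.0248). Herpud1, of a component of protein disposal, measured 23.1 and 35.2 CPM at 12 months, against 12.5 and 14.9 CPM at 3 months (1.09 ± 0.30, adjusted p = 0.0466). In both the 12-month libraries again lay above the 3-month ones. Atf4 and Xbp1, factors that drive the response, had log2 fold changes of 0.55 ± 0.22 and 0.53 ± 0.21 and were not called. Summed over the list, the level was 3179 and 3763 CPM at 12 months, against 1773 and 1709 CPM at 3 months. Without A2 or without F81 the list had 2 calls, and without A1 or without F79 it had 3.

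The Hspa5 promoter held the endoplasmic reticulum stress element, a CCAAT box and the letters CCACG set 9 bases apart. The element was searched without mismatch on both strands of the 250 bases before each RefSeq start, and its CCAAT part overlaps the plain CCAAT box. It is shown in capitals with 5 bases on either side, plus strand of GRCm38.p6, at chr2:34772020-34772048, which the GENCODE annotation places in the first exon of a longer Hspa5 transcript.
Hspa5: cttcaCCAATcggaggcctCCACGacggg
The exact element was in 0.114% of the 13173 windows and in 1 of the 5 unfolded protein genes that rose. The shorter CCAAT box was in all 5 of them, against 34.6% of windows. A match of letters is a description of these windows only.

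Oxidant-response and p53-target genes added further members to the stress genes, beside rises in 3.9% of all genes tested. Of 14 antioxidant genes 3 rose and 0 fell, with a median of 0.40. Hmox1, of the haem-degrading enzyme HO-1, measured 107 and 69.2 CPM at 12 months, against 14.1 and 14.8 CPM at 3 months (2.59 ± 0.44, adjusted p = 0.00664). Srxn1, of sulfiredoxin, measured 59.4 and 69.2 CPM at 12 months, against 17.1 and 28.2 CPM at 3 months (1.49 ± 0.29, adjusted p = 0.00744). Gclc, of the enzyme that starts glutathione synthesis, measured 51.3 and 54.2 CPM at 12 months, against 17.9 and 26.5 CPM at 3 months (1.23 ± 0.28, adjusted p = 0.0207). All 3 had no overlap between ages. Of 14 p53 targets 2 rose, Sesn2 with 49.5 and 38.7 CPM at 12 months, against 10.05 and 8.43 CPM at 3 months (2.26 ± 0.36, adjusted p = 0.00207) and Gdf15 with 4.20 and 2.33 CPM at 12 months, against 0.372 and 0.115 CPM at 3 months (3.89 ± 1.06, adjusted p = 0.0486). Sesn2 encodes a stress sensor that restrains growth signalling, and Gdf15 a secreted stress hormone. The Gdf15 levels at 3 months, 0.372 and 0.115 CPM, rest on few counts. The median of the p53 list was 0.26, and Cdkn1a, its best-known target, was 444 and 427 CPM at 12 months, against 403 and 242 CPM at 3 months (0.43 ± 0.27, adjusted p = 0.412).

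Contractile genes of the myoepithelium lay lower at 12 months, though few passed the test. In luminal libraries of the same pools all 18 tested members had negative log2 fold changes (median -1.76) and 4 fell. In stroma 14 were positive (median 0.32). For no member was the age change called different between basal and luminal cells. In basal cells 17 of the 18 had negative log2 fold changes, with a median of -1.16, and 2 fell. Mrvi1, of a partner of the calcium-release channel in smooth muscle, measured 26.4 and 27.0 CPM at 12 months, against 75.4 and 76.4 CPM at 3 months (-1.504 ± 0.26, adjusted p = 0.00359). Tagln, of the actin-binding protein transgelin, measured 67.5 and 104 CPM at 12 months, against 260.2 and 217 CPM at 3 months (-1.47 ± 0.38, adjusted p = 0.0406). Both had 12-month libraries clearly below the 3-month ones. Acta2, of smooth-muscle actin, measured 886 and 1266 CPM at 12 months, against 2976 and 2104 CPM at 3 months (-1.24 ± 0.49, adjusted p = 0.198). Myh11, of smooth-muscle myosin, measured 1312 and 1283 CPM at 12 months, against 3139 and 2113 CPM at 3 months (-1.02 ± 0.42, adjusted p = 0.206). Oxtr, of the oxytocin receptor that triggers contraction, measured 368 and 307 CPM at 12 months, against 1948 and 736 CPM at 3 months (-1.99 ± 1.07, adjusted p = 0.385). For these 3 genes the ages did not overlap, as in 46.7% of all genes tested, and the test was not passed. The 3-month pools differed from each other, with F79 above F81. The spread in the test came from all 12 wild-type libraries, and why these genes missed the threshold was not tested. The summed level of the list was 6584 and 6937 CPM at 12 months, against 19424 and 11669.6 CPM at 3 months. DESeq2 called 5 of the list, limma voom with the pool as a random block 4, and edgeR with only the 4 basal libraries in the fit 9. The count was 0 in the fits to 24 and 26 libraries and 1 without A1, without A2 or without F79, and without F79 the median was -0.73.

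Keratins and transcription factors of basal cells were mixed as a list. Over all genes tested 3.9% rose and 1.07% fell. Of 16 members 1 rose and 0 fell, with 6 positive and 10 negative log2 fold changes and a median of -0.29. The summed level was 2153 and 2371 CPM at 12 months, against 3364 and 3005 CPM at 3 months. The called member was Sox9, of a factor of stem and progenitor cells, with 424 and 320.2 CPM at 12 months, against 152 and 178 CPM at 3 months (1.17 ± 0.28, adjusted p = 0.0248). Krt14 gave a log2 fold change of -0.95 ± 1.18, adjusted p = 0.734, and Krt5 of -1.14 ± 1.39, adjusted p = 0.730. Their 12-month libraries lay below the 3-month ones without overlap, as 46.7% of all genes tested had none, and the test was not passed. The spread in that test came from all 12 wild-type libraries, and why Krt14 and Krt5 missed the threshold was not tested. With only the 4 basal libraries in the fit Krt5 passed the test (adjusted p = 0.0352) and Krt14 did not (adjusted p = 0.0627). Trp63, of the basal master regulator p63, measured 199 and 186 CPM at 12 months, against 344 and 271 CPM at 3 months (-0.67 ± 0.97, adjusted p = 0.774). Snai2, the gene removed in the null line of the series, measured 57.6 and 49.7 CPM at 12 months, against 42.8 and 34.5 CPM at 3 months (0.48 ± 0.32, adjusted p = 0.449). Here the order was the other way, with both 12-month libraries above the 3-month ones, and the test was not passed.

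Adhesion genes of the basal layer and its matrix showed mostly small, uncalled differences. Of 18 hemidesmosome, laminin-332 and integrin genes 15 had negative log2 fold changes (median -0.50) and edgeR called 0, with 5 at an unadjusted p under 0.05, while DESeq2 and limma voom with the pool as a random block each called 1. Itga6, which encodes the CD49f protein used in the sort, measured 661 and 564 CPM at 12 months, against 732 and 715 CPM at 3 months (-0.24 ± 0.56, adjusted p = 0.868). Itgb1, of an integrin beta chain, measured 270.1 and 324 CPM at 12 months, against 401 and 349 CPM at 3 months (-0.34 ± 0.21, adjusted p = 0.411). Epcam, of the other sort protein, measured 412 and 434 CPM at 12 months, against 298 and 283 CPM at 3 months (0.54 ± 0.37, adjusted p = 0.463). Itga6 and Itgb1 lay lower and Epcam higher at 12 months without overlap, and none of them was called. Such a lack of overlap was seen in 46.7% of all genes tested. Of 31 basement membrane and matrix genes 1 rose and 1 fell, with a median of -0.44. Over all genes tested 3.9% rose and 1.07% fell. Sparcl1, of a SPARC-like matrix protein, measured 218 and 199 CPM at 12 months, against 122 and 76.4 CPM at 3 months (1.08 ± 0.27, adjusted p = 0.0299). Col5a3, of a collagen V chain, measured 3.60 and 1.94 CPM at 12 months, against 6.51 and 7.10 CPM at 3 months (-1.42 ± 0.38, adjusted p = 0.0416, and 0.161 by limma voom with the pool as a random block). Among 20 matrix proteases and their inhibitors 2 rose and 0 fell (median -0.16). Adamts9, of a proteoglycan-cutting protease, measured 120.3 and 149.6 CPM at 12 months, against 49.3 and 49.4 CPM at 3 months (1.45 ± 0.26, adjusted p = 0.00474). In each of these 3 called genes the ages lay apart.

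**Figure D3:**
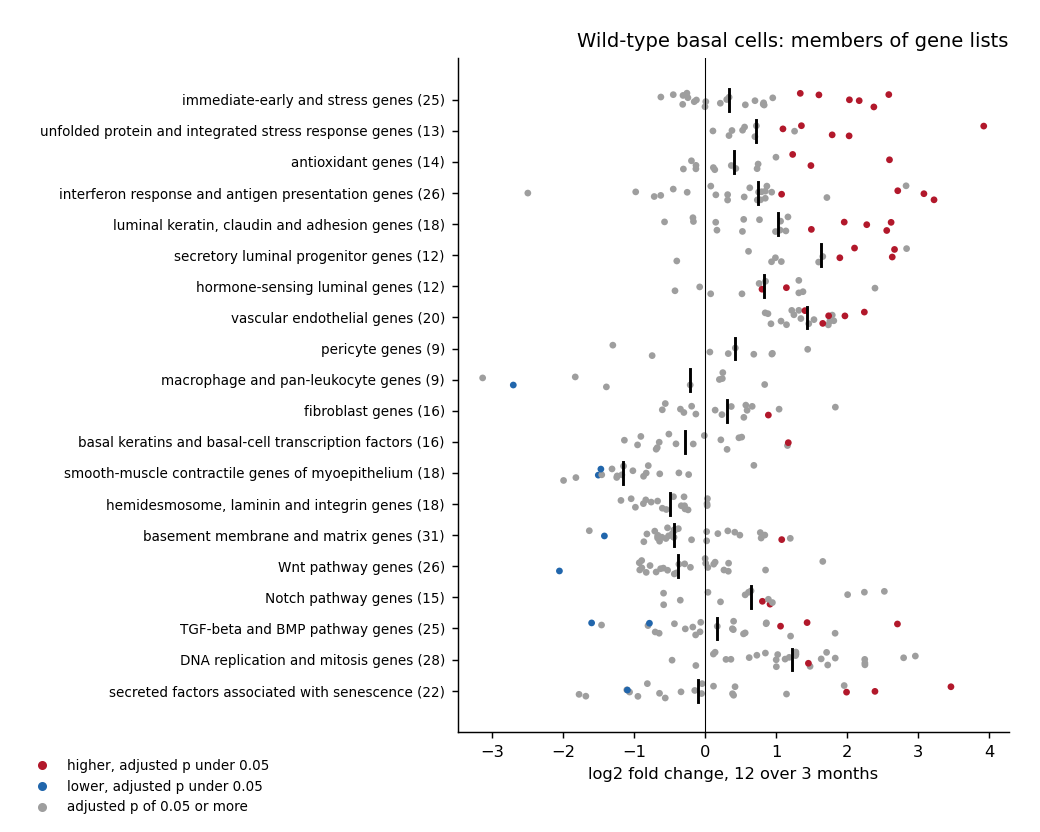
Log2 fold changes between 12 and 3 months in wild-type basal cells (horizontal) for every tested member of 20 gene lists, with red and blue for called rises and falls, grey for genes not called, and a black bar at the median of each list. The medians of the endothelial, luminal and unfolded protein lists lie right of 0, and that of the contractile list lies left of it, at -1.16.

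Luminal genes were higher in 12-month basal libraries. Of 18 luminal keratin, claudin and adhesion genes 5 rose and 0 fell, and 15 had positive log2 fold changes (median 1.02). Ehf, of an epithelial transcription factor of the ETS family, measured 58.5 and 40.9 CPM at 12 months, against 3.91 and 11.1 CPM at 3 months (2.62 ± 0.42, adjusted p = 0.00359). Cldn3 and Cldn4 encode tight-junction claudins, and Cldn4 measured 36.6 and 21.2 CPM at 12 months, against 2.05 and 6.69 CPM at 3 months (2.56 ± 0.56, adjusted p = 0.0288) and Cldn3 5.10 and 9.83 CPM at 12 months, against 1.12 and 1.85 CPM at 3 months (2.27 ± 0.47, adjusted p = 0.0106). Krt19, of a luminal keratin, measured 122 and 149.8 CPM at 12 months, against 39.5 and 56.4 CPM at 3 months (1.495 ± 0.36, adjusted p = 0.0302). Each had both 12-month libraries above both 3-month ones. The fifth called member was Cldn7 (1.96 ± 0.52, adjusted p = 0.0415). Krt8, of keratin 8, measured 179 and 165 CPM at 12 months, against 65.7 and 90.2 CPM at 3 months (1.14 ± 0.33, adjusted p = 0.0681) and missed the threshold, while DESeq2 (adjusted p = 0.0192) and limma voom with the pool as a random block (adjusted p = 0.0381) called it. In luminal libraries Krt8 lay at 619 and 475 CPM at 12 months, against 741 and 459.6 CPM at 3 months, above all 4 basal libraries.

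Genes of secretory luminal progenitors followed the same direction. Of 12 tested genes of 13 listed 4 rose and 0 fell, with a median of 1.63. Kit (ENSMUSG00000005672, chromosome 5, 75574916 to 75656722, plus strand), of the stem cell factor receptor that marks luminal progenitors, measured 60.0 and 56.3 CPM at 12 months, against 14.5 and 16.5 CPM at 3 months (1.90 ± 0.29, adjusted p = 0.00171). Elf5, of the factor that directs milk-secreting differentiation, measured 28.5 and 18.4 CPM at 12 months, against 3.72 and 6.52 CPM at 3 months (2.10 ± 0.41, adjusted p = 0.00868). Ltf, of the secreted iron-binding protein lactoferrin, measured 58.8 and 39.7 CPM at 12 months, against 6.89 and 8.60 CPM at 3 months (2.63 ± 0.61, adjusted p = 0.0393). Kit was nearly level between the pools of each age, and Elf5 and Ltf were higher in A1 than in A2. Plet1, of a surface protein of epithelial progenitors, measured 827 and 361 CPM at 12 months, against 44.1 and 142 CPM at 3 months (2.67 ± 0.63, adjusted p = 0.0436). Lcn2, of lipocalin 2, measured 710.0 and 459 CPM at 12 months, against 733 and 808 CPM at 3 months (-0.40 ± 0.45, adjusted p = 0.696) and did not follow the others.

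Of 12 hormone-sensing genes 2 rose and 0 fell, with a median of 0.83. Ly6a, of the surface protein Sca-1, measured 45.0 and 48.1 CPM at 12 months, against 20.5 and 21.6 CPM at 3 months (1.14 ± 0.22, adjusted p = 0.00800). Tbx3, of a T-box factor of gland development, measured 96.0 and 103 CPM at 12 months, against 64.8 and 49.9 CPM at 3 months (0.80 ± 0.21, adjusted p = 0.0415). The ages did not overlap in either gene. Neither was among the genes listed above that kept the call whichever basal library was left out. With another scaling of the libraries (RLE) 1 of this list was called. The calls in the keratin and claudin list fell to 1 or 2 of 5 when a basal library was left out, and those of the secretory list to between 1 and 3 of 4.

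Milk genes stood out in 1 pool. Summed over 14 milk protein and milk fat genes the level was 13529.5 and 609 CPM at 12 months, against 141 and 188 CPM at 3 months. A1 therefore held far more than A2, which in turn lay above both 3-month pools. Csn2, of beta-casein, measured 6775 and 47.2 CPM at 12 months, against 2.61 and 7.33 CPM at 3 months (9.32 ± 3.64, adjusted p = 0.237), and Wap, of whey acidic protein, was detected in A1 alone at 24.9 CPM. Csn2 in the luminal libraries of the same pools lay at 19432 CPM in A1 and 163 CPM in A2, against 6.44 and 28.0 CPM at 3 months. All 14 members had positive log2 fold changes, and 1 was called, Csn3. The part of free milk RNA or of secretory cells in the luminal genes above was not tested. Without A1 the secretory progenitor list had 1 call and a median of 1.14, and the keratin and claudin list had 2 calls.

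**Figure D4:**
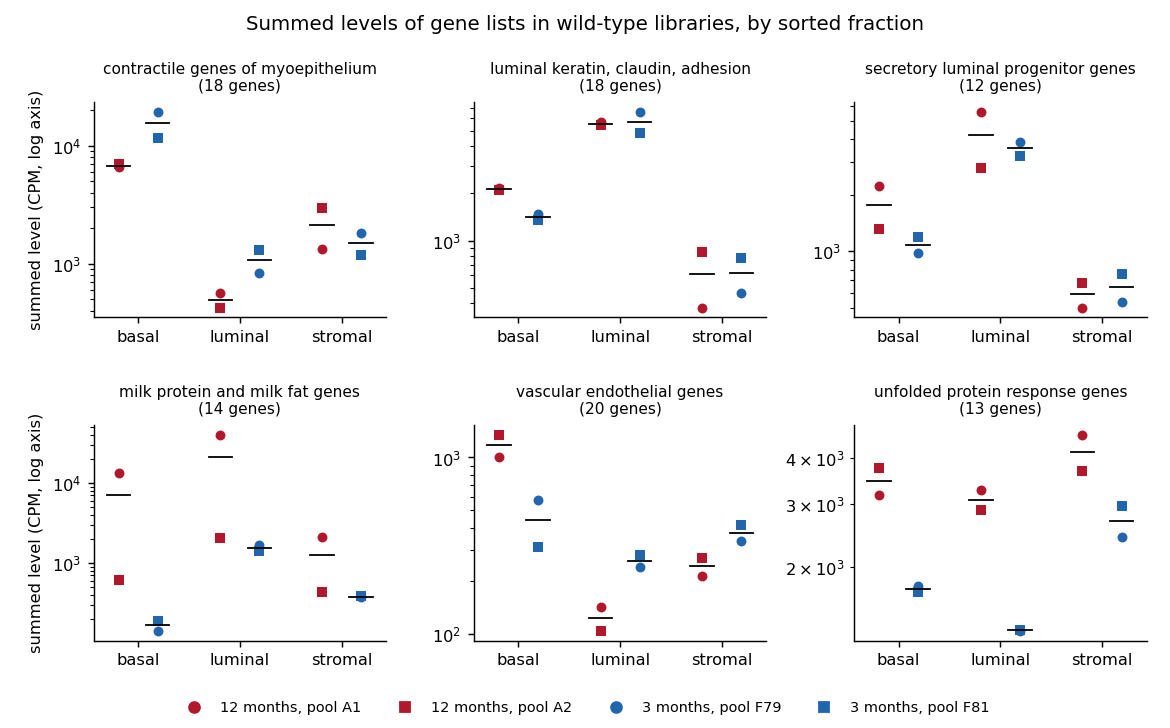
Summed levels (CPM, vertical log axis) of 6 gene lists in the 12 wild-type libraries by sorted fraction (horizontal), with 12 months in red left of 3 months in blue, circles and squares for the pools and bars for their mean. In basal cells the contractile genes lie lower and the luminal, endothelial and unfolded protein genes higher at 12 months, and the milk genes are highest in pool A1 in each fraction.

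Blood vessel genes were higher at 12 months in basal libraries and mostly lower in the other fractions of the same pools. Of 20 vascular endothelial genes 18 had negative log2 fold changes in luminal cells (median -0.93) and 19 in stroma (median -0.98). Their summed level in stroma was 214 and 270 CPM at 12 months, against 334 and 416 CPM at 3 months. In basal cells all 20 had positive log2 fold changes, with a median of 1.43, and 5 were called. Pecam1 (ENSMUSG00000020717, chromosome 11, 106654217 to 106750628, minus strand), of the adhesion protein CD31 that marks endothelial cells, measured 139 and 158 CPM at 12 months, against 45.6 and 31.0 CPM at 3 months (1.97 ± 0.27, adjusted p = 0.000897). Emcn, of the endothelial sialomucin endomucin, measured 48.3 and 62.7 CPM at 12 months, against 16.0 and 8.14 CPM at 3 months (2.24 ± 0.41, adjusted p = 0.00560). Tek, of the angiopoietin receptor Tie2, measured 24.01 and 35.6 CPM at 12 months, against 11.4 and 7.16 CPM at 3 months (1.74 ± 0.37, adjusted p = 0.0135). All 3 had the ages apart, and the 3-month pool F79 lay above F81. Eng and Esam were the other two called, with 1.41 ± 0.29 and 1.66 ± 0.45. Summed, the endothelial level was 1003 and 1342 CPM at 12 months, against 571 and 309.7 CPM at 3 months. The list had 5 calls without A1 and 6 without F79, but 1 without A2 and 1 without F81. With the pool as a random block limma voom called 13.

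Genes of other cell types gave 0 to 2 calls per list, beside rises in 3.9% and falls in 1.07% of all genes tested. Of 9 tested pericyte genes edgeR called 0, with 3 at an unadjusted p under 0.05, and DESeq2 and limma voom each called 1. Positive log2 fold changes were seen in 7 (median 0.42). Rgs5, the best-known mark of these vessel-wrapping cells, measured 522 and 424 CPM at 12 months, against 267 and 82.2 CPM at 3 months (1.44 ± 0.51, adjusted p = 0.149, and 0.0177 by limma voom with the pool as a random block). Of 16 fibroblast genes 1 rose and 0 fell, with a median of 0.30. The called one was Cd34, a gene also of blood vessels, with 36.9 and 40.1 CPM at 12 months, against 21.8 and 19.97 CPM at 3 months (0.89 ± 0.23, adjusted p = 0.0337), whereas Col1a1, of collagen I, measured 57.9 and 42.4 CPM at 12 months, against 56.8 and 66.0 CPM at 3 months. Of 6 tested adipocyte genes, of 12 listed, 2 rose, namely Fabp4 with 336 and 488 CPM at 12 months, against 198 and 99.0 CPM at 3 months (1.48 ± 0.34, adjusted p = 0.0222) and Pparg with 17.1 and 19.7 CPM at 12 months, against 5.96 and 3.17 CPM at 3 months (2.08 ± 0.42, adjusted p = 0.00989). Adipoq, the defining adipocyte gene, had 1 and 1 counts at 12 months, against 4 and 0 counts at 3 months. Among 9 tested macrophage and pan-leukocyte genes, of 15 listed, 1 fell, Mrc1, of the macrophage mannose receptor, with 0.600 and 0.647 CPM at 12 months, against 3.91 and 4.44 CPM at 3 months (-2.70 ± 0.71, adjusted p = 0.0385, and 0.0925 by limma voom with the pool as a random block). The summed level of this list was 26.1 and 22.6 CPM at 12 months, against 21.0 and 33.5 CPM at 3 months, and C1qa, of a complement protein of macrophages, had 1 and 0 counts at 12 months, against 1 and 10 counts at 3 months. The part of these cell types in the differences of other genes was not tested.

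Interferon-induced and antigen-presentation genes held 4 rises and 0 falls among 26 tested, with a median of 0.74. Ifit1, of an RNA-binding antiviral protein, measured 35.4 and 21.2 CPM at 12 months, against 3.91 and 2.89 CPM at 3 months (3.08 ± 0.57, adjusted p = 0.00797). Cxcl10, of a chemokine that draws T cells, measured 31.5 and 20.3 CPM at 12 months, against 1.12 and 3.75 CPM at 3 months (3.22 ± 0.71, adjusted p = 0.0257). Rsad2, of the antiviral enzyme viperin, measured 19.5 and 13.8 CPM at 12 months, against 2.79 and 2.31 CPM at 3 months (2.71 ± 0.54, adjusted p = 0.00899). In all 3 A1 was the highest library. H2-K1, of a class I antigen-presenting molecule, measured 867 and 806 CPM at 12 months, against 439 and 354 CPM at 3 months (1.08 ± 0.24, adjusted p = 0.0197), with the pools of each age close together. B2m, its partner chain, measured 895 and 888 CPM at 12 months, against 538 and 438 CPM at 3 months (0.87 ± 0.26, adjusted p = 0.0662) and was not called. Isg15 and Irf7, also induced by interferon, had log2 fold changes of 0.75 ± 0.48 and 0.15 ± 0.54 and were not called either. None of the 4 called genes was among those listed above that kept the call whichever basal library was left out. The median of the list then ran from 0.40 without F79 to 0.71 without F81.

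Single growth factor and cytokine genes rose, beside rises in 3.9% and falls in 1.07% of all genes tested. Of 26 growth factor ligands and receptors 3 rose and 0 fell, with a median of 0.04. Hbegf, of a membrane-tethered ligand of the EGF receptor and of ERBB4, measured 155 and 167 CPM at 12 months, against 32.2 and 26.3 CPM at 3 months (2.47 ± 0.32, adjusted p = 0.000691). Igf2, of insulin-like growth factor 2, measured 28.5 and 41.3 CPM at 12 months, against 8.37 and 5.83 CPM at 3 months (2.34 ± 0.42, adjusted p = 0.00474), and Erbb4, named above, was the third. All 3 had the ages apart. Among 22 tested secreted factors that senescent cells release 3 rose and 1 fell, with a median of -0.10. Lif, of leukaemia inhibitory factor, which acts in the shrinking gland after weaning, measured 62.4 and 44.4 CPM at 12 months, against 10.05 and 10.2 CPM at 3 months (2.39 ± 0.34, adjusted p = 0.00115). Tnf, of the inflammatory cytokine, measured 8.70 and 4.66 CPM at 12 months, against 0.558 and 0.577 CPM at 3 months (3.46 ± 0.53, adjusted p = 0.00171). Igfbp5, of a binding protein of insulin-like growth factors, fell and measured 2309.7 and 2049 CPM at 12 months, against 5161 and 4143 CPM at 3 months (-1.09 ± 0.29, adjusted p = 0.0388). Il6 of the same list gave 36.0 and 30.4 CPM at 12 months, against 19.4 and 30.6 CPM at 3 months (0.39 ± 0.50, adjusted p = 0.738).

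Signalling pathways of the gland moved in single members, beside rises in 3.9% and falls in 1.07% of all genes tested. Of 25 TGF-beta and BMP genes 3 rose and 2 fell (median 0.17). Bmp2, of a bone morphogenetic protein ligand, measured 11.7 and 10.6 CPM at 12 months, against 2.23 and 1.39 CPM at 3 months (2.71 ± 0.37, adjusted p = 0.000804). Id2, of a target of that pathway that blocks basic helix-loop-helix factors, measured 37.2 and 37.2 CPM at 12 months, against 17.7 and 10.4 CPM at 3 months (1.43 ± 0.31, adjusted p = 0.0148). Fst, of follistatin, which binds and blocks activins and BMPs, measured 75.3 and 76.0 CPM at 12 months, against 237 and 222 CPM at 3 months (-1.598 ± 0.30, adjusted p = 0.00560). These are single members of a mixed list, with 13 positive and 12 negative log2 fold changes, and activity of the pathway was not tested. Ltbp1 and Ltbp3 encode proteins that store latent TGF-beta in the matrix. Ltbp1 measured 52.5 and 37.2 CPM at 12 months, against 20.1 and 22.4 CPM at 3 months (1.06 ± 0.24, adjusted p = 0.0197), and Ltbp3, the fifth called member, had -0.78 ± 0.21. Of 26 tested Wnt pathway genes 0 rose and 1 fell, Wnt10a, with a median of -0.39. Of 15 tested Notch pathway genes 2 rose and 0 fell (median 0.65). Notch1, of a receptor of luminal fate, measured 91.5 and 75.1 CPM at 12 months, against 46.7 and 41.7 CPM at 3 months (0.91 ± 0.22, adjusted p = 0.0266). Jag1, of a ligand, measured 110.1 and 122 CPM at 12 months, against 65.5 and 67.5 CPM at 3 months (0.81 ± 0.21, adjusted p = 0.0362). Neither Notch1 nor Jag1 was among the genes listed above that kept the call whichever basal library was left out. The median of the Notch list then ran from 0.21 without F81 to 0.99 without F79.

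Cell-cycle genes were highest in pool A2. Calls in this list and the next stand beside rises in 3.9% of all genes tested. Of 28 replication and mitosis genes 26 had positive log2 fold changes (median 1.23, but -0.39 without A2), and 1 was called. Pcna, of the replication clamp, measured 214 and 184 CPM at 12 months, against 83.4 and 62.1 CPM at 3 months (1.45 ± 0.25, adjusted p = 0.00368). Mki67, of the proliferation mark Ki-67, measured 18.3 and 200.2 CPM at 12 months, against 43.9 and 19.4 CPM at 3 months (1.83 ± 1.53, adjusted p = 0.587), so that A2 lay above the other 3 libraries. The summed level of the list was 513 and 1071 CPM at 12 months, against 512 and 366 CPM at 3 months. Among 11 tested cell-cycle inhibitor and senescence genes 1 rose and 0 fell (median 0.43). The rise was Hmgb2, of a chromatin protein that is abundant in dividing cells, with 69.3 and 112 CPM at 12 months, against 42.6 and 18.8 CPM at 3 months (1.59 ± 0.36, adjusted p = 0.0212).

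Single genes under daily and hormonal control also differed, beside rises in 3.9% and falls in 1.07% of all genes tested. Nr1d1, of the clock repressor REV-ERB alpha, measured 60.0 and 58.8 CPM at 12 months, against 12.3 and 11.2 CPM at 3 months (2.34 ± 0.39, adjusted p = 0.00406). Hlf, of a clock output factor, measured 51.6 and 31.9 CPM at 12 months, against 11.5 and 17.7 CPM at 3 months (1.48 ± 0.29, adjusted p = 0.00835). These were the 2 called of 16 circadian clock genes (median 0.77), and the hour of tissue collection is not given in the sources used here. Of 14 genes induced by glucocorticoids or fasting 4 rose and 1 fell (median 0.29). Zbtb16, of a zinc-finger factor that glucocorticoids induce, measured 32.7 and 23.9 CPM at 12 months, against 6.51 and 10.2 CPM at 3 months (1.70 ± 0.28, adjusted p = 0.00237). Fam107a measured 16.2 and 18.8 CPM at 12 months, against 4.84 and 3.87 CPM at 3 months (2.03 ± 0.41, adjusted p = 0.00952). Angptl4, of an inhibitor of lipoprotein lipase, fell to 59.1 and 74.1 CPM at 12 months, against 242 and 195 CPM at 3 months (-1.71 ± 0.33, adjusted p = 0.00892). Txnip, of a regulator of glucose uptake, was also called higher (1.04 ± 0.28, adjusted p = 0.0405). In each of the 4 the ages did not overlap. Of 18 genes of cholesterol and fatty acid synthesis 2 rose and 0 fell (median 0.35). Acly, of the enzyme that makes acetyl-CoA for fat synthesis, measured 188 and 143 CPM at 12 months, against 73.5 and 55.1 CPM at 3 months (1.37 ± 0.24, adjusted p = 0.00391). Insig1, of a brake on that pathway, measured 42.6 and 37.5 CPM at 12 months, against 13.6 and 7.68 CPM at 3 months (1.95 ± 0.41, adjusted p = 0.0153).

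Luminal and stromal cells of the same pools show how far the basal differences were shared. Luminal cells had 298 rises (1.99% of the genes tested) and 228 falls (1.52%), and stroma 224 rises (1.49%) and 58 falls (0.387%). Of the 585 basal rises 176 were also called higher in luminal cells, which is 30.1% of the basal and 59.1% of the luminal rises, and 139 in stroma (23.8% and 62.1%). Called higher in all 3 fractions were 115 genes, and called lower in all 3 were 7. Of the 161 basal falls 35 were shared with luminal cells (21.7% of the basal and 15.4% of the luminal falls) and 15 with stroma (9.32% and 25.9%). The fractions come from the same pools of mice, so these counts are not independent repeats of the age difference.

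Stress genes were among those called higher in all 3 fractions. Fosb had log2 fold changes of 2.03 ± 0.30 in basal, 1.88 ± 0.30 in luminal and 1.66 ± 0.30 in stromal cells. Dnajb9 had 2.03 ± 0.21, 1.97 ± 0.22 and 2.04 ± 0.21 in the same order of fractions. Hspa1a had 2.37 ± 0.27 in basal, 2.15 ± 0.27 in luminal and 2.96 ± 0.28 in stromal cells, and each of these 9 values was called. In the immediate-early and stress list luminal cells had 13 rises (median 1.22) and stroma 12 (median 1.05), beside 6 in basal cells (median 0.34). In the unfolded protein list they had 7 and 4 rises, beside 5 in basal cells. Hbegf, Sesn2, Hmox1, Klf4, Jun, Lonrf3 and Lsmem1 were also called higher in all 3 fractions.

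The age difference itself differed between basal and luminal cells in 59 genes, 56 with a higher basal fold change (0.374% of the genes tested) and 3 with a lower one (0.02%). Between basal and stromal cells it differed in 42, of which 38 were higher (0.254%) and 4 lower (0.0267%). Without the stromal library A1 the balance turned round, with 28 higher and 84 lower. With the pool, which marks the same mice in each fraction, as a fixed block these counts were 129 and 82, and 57 of the 59 and 41 of the 42 were among them. As a random block in limma voom they were 62 and 90, with 40 of the 59 and 35 of the 42 among them. Ly6c1, of a surface protein of endothelial and myeloid cells, measured 47.7 and 44.1 CPM at 12 months, against 20.1 and 13.7 CPM at 3 months in basal cells. In luminal cells it lay at 4.19 and 1.82 CPM at 12 months, against 15.5 and 15.3 CPM at 3 months, and the difference of log2 fold changes was 3.82 ± 0.46, adjusted p = 0.00611. Ly6c1 thus rose in basal cells and fell in luminal cells, both called. S1pr1, of a receptor for sphingosine phosphate on endothelial cells, gave 4.49 ± 0.63, adjusted p = 0.0113 in the same test, Calcrl, of a receptor of adrenomedullin, 2.90 ± 0.40, adjusted p = 0.0113, and Cd34 2.70 ± 0.36, adjusted p = 0.0113. The direction was the other way in Ctgf, of a matrix-bound growth factor. It measured 159.6 and 154 CPM at 12 months, against 185 and 86.4 CPM at 3 months in basal cells, where it was not called and its log2 fold change of 0.21 became -0.30 without F81. It rose in luminal cells by 3.17 ± 0.33, for a difference of -2.96 ± 0.43, adjusted p = 0.0114.

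**Figure D5:**
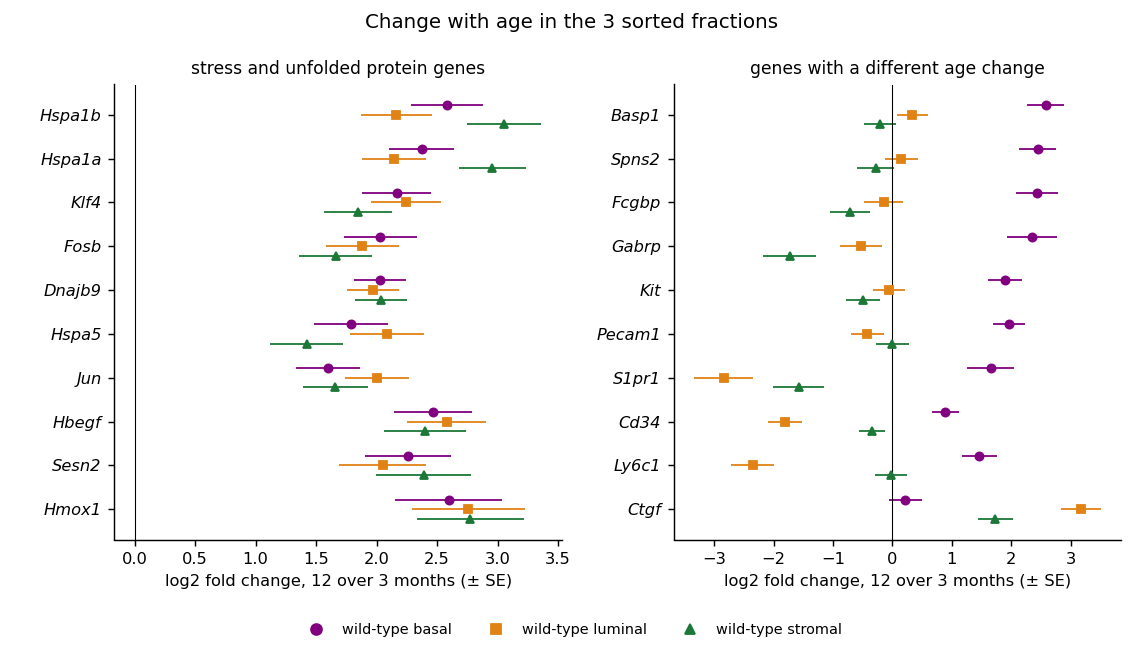
Log2 fold changes between 12 and 3 months with their standard errors (horizontal) in wild-type basal, luminal and stromal cells for 10 stress genes (left) and 10 genes whose change differed between basal cells and another fraction (right). The stress genes lie right of 0 in all 3 fractions, and Kit and Basp1 do so in basal cells at 1.90 and 2.58.

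Basp1, Spns2, Fcgbp, Gabrp and Pde2a had basal changes that exceeded those in both other fractions, although for Gabrp over luminal cells limma voom with the pool as a random block gave an adjusted p of 0.0508, against 0.0314 in edgeR. Basp1, of a membrane protein of growing nerve ends, measured 23.7 and 17.7 CPM at 12 months, against 2.79 and 3.81 CPM at 3 months in basal cells (2.58 ± 0.31, adjusted p = 0.000433). In luminal cells its log2 fold change was 0.33 ± 0.26 and in stroma -0.22 ± 0.27, and the basal change exceeded the stromal one by 2.79 ± 0.41, adjusted p = 0.0433. Spns2, of the exporter of sphingosine phosphate, measured 39.0 and 42.6 CPM at 12 months, against 5.96 and 8.66 CPM at 3 months (2.44 ± 0.31, adjusted p = 0.000572) and exceeded stroma by 2.72 ± 0.44, adjusted p = 0.0433. Luminal levels of Basp1 and Spns2 were above the basal ones at both ages. Fcgbp, of a mucin-like secreted protein, measured 241 and 270.3 CPM at 12 months, against 29.0 and 64.8 CPM at 3 months (2.43 ± 0.35, adjusted p = 0.00148), with luminal libraries at 719 and 745 CPM at 12 months, against 929.9 and 692 CPM at 3 months. Gabrp, of a GABA receptor subunit, measured 7.80 and 15.6 CPM at 12 months, against 1.67 and 2.77 CPM at 3 months (2.35 ± 0.42, adjusted p = 0.00436) and exceeded stroma by 4.08 ± 0.61, adjusted p = 0.0433. Pde2a, of a cyclic nucleotide phosphodiesterase, exceeded it by 2.98 ± 0.48, adjusted p = 0.0433. These 5 were the smallest p-values of the basal over stromal test. Basal over luminal, the difference for Kit was 1.95 ± 0.39, adjusted p = 0.0428 and for Pecam1 2.39 ± 0.39, adjusted p = 0.0187. Calls of the basal over stromal difference fell to 0 without basal A2, without basal F79 or without stromal F81, and those of the basal over luminal difference numbered 13 to 124 with 1 library left out.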

How the data were processed

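RNA was sequenced from sorted mammary cells. Per the labels' protocols, 5 ng of RNA per library was amplified with NuGEN Ovation V2 and 100 ng of cDNA entered TruSeq Nano libraries. The submitters' processing notes name TopHat2 2.0.13, HTSeq and the build GRCm38, and no strand or overlap setting of the counting was known. The authors deposited raw counts per gene, whole numbers for 45706 genes in 26 libraries of 13 groups of 2, of which 45143 IDs matched GENCODE vM21, the source of positions.

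From the deposited counts, edgeR 4.0.16 (R 4.3.3) fitted a robust quasi-likelihood model to the 12 wild-type libraries with 1 coefficient for each of 6 groups, after filterByExpr (minimum count 10, minimum total 15) and TMM scaling. Calls used a Benjamini-Hochberg adjusted p under 0.05 over all 14990 genes. CPM are counts divided by the scaled library total, per 1e+06. The differences of age changes were contrasts of the same fit. The edgeR test of basal cells was also run on counts simulated with known changes from the spread of this same fit. Such a run checks the working of the test and gives no support to the calls above.

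Genes were named by a rule: Snai2, Krt14, Krt5, Krt8, Trp63, Cdkn2a and Pecam1 always, the 12 largest rises and falls among called genes whose ages did not overlap and whose higher age averaged 10 CPM or more, up to 4 members per list described (called members of smallest p, otherwise those of highest CPM), and the 5 smallest p-values of each difference. Some genes that the rule picked are not reported here. Other list members given as examples were chosen after their values were seen. The comparison, the gene lists (37) and the rule were chosen with earlier results of these data known.

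Pool labels mark the same mice across fractions. The residuals of 2 fractions of 1 pool about their group means had correlations of 0.00311 to 0.313, above 0.1 in 4 of 6 pairs, so fits with the pool as a replicate block (fixed in edgeR, random in limma 3.58.1) were run as alternatives, beside RLE scaling, no filter, DESeq2 1.42.0, other sets of libraries and each library left out. Promoter sequences are from RefSeq (GRCm38.p6). Figures used Python 3.11.15 and matplotlib 3.10.9.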

Additional observations from a re-analysis of the deposited data

Results flagged for a closer look

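For 23 genes named in the text the age change in basal cells differed from that in another fraction, by the contrast of age changes in the edgeR fit over 12 libraries (Benjamini-Hochberg adjusted p under 0.05). No other feature brought a gene here. Values are the log2 fold change of basal cells minus that of the other fraction, with its SE.

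Against luminal cells the difference was 4.49 ± 0.63 for S1pr1, the receptor for sphingosine-1-phosphate, 2.30 ± 0.41 for Spns2, which exports that lipid, 3.82 ± 0.46 for Ly6c1, 3.095 ± 0.63 for Emcn, 2.39 ± 0.39 for Pecam1, 2.58 ± 0.42 for Eng and 2.90 ± 0.40 for Calcrl. It was 2.70 ± 0.36 for Cd34, 2.95 ± 0.49 for Fabp4, 1.76 ± 0.31 for Ly6a, 2.07 ± 0.39 for Sparcl1, 2.93 ± 0.50 for Pde2a and 2.29 ± 0.37 for the protease gene Adamts9. For the receptor gene Notch3, also a mark of pericytes, it was 2.15 ± 0.39. Against stromal cells it was 3.23 ± 0.59 for S1pr1, 2.72 ± 0.44 for Spns2, 3.49 ± 0.62 for Emcn, 1.97 ± 0.38 for Pecam1, 2.98 ± 0.48 for Pde2a and 1.90 ± 0.37 for Adamts9.

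Kit, the receptor tyrosine kinase of luminal progenitors, differed by 1.95 ± 0.39 against luminal and 2.39 ± 0.40 against stromal cells. Gabrp, a GABA receptor subunit, differed by 2.88 ± 0.55 and 4.08 ± 0.61. With the pool as a random block in limma voom the first of these was not called (adjusted p = 0.0508). Fcgbp, a secreted mucin-like protein, differed by 2.58 ± 0.48 and 3.15 ± 0.48, and Basp1, a membrane-bound signalling protein, by 2.25 ± 0.40 and 2.79 ± 0.41.

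Among single genes, Tbx3, a transcription factor of mammary development, differed by 1.69 ± 0.30 against luminal cells and Txnip, which binds thioredoxin, by 1.94 ± 0.39. Lif, a cytokine, differed by 2.59 ± 0.47 against stromal cells and Srxn1, which repairs oxidised peroxiredoxins, by 2.42 ± 0.41. Ctgf, a target of YAP, was the only one of these with a negative difference, -2.96 ± 0.43 against luminal cells. These differences were not called in the fits to 24 or 26 libraries, and their causes were not tested.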

How the results depend on the processing

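The count of 746 genes called in basal cells kept within 1.5 times under RLE scaling (725), DESeq2 (921), only the basal libraries (706) and limma voom with the pool as a random replicate block (1081). It was 1284 without the low-count filter, 55 in the fit to 24 libraries and 0 in the fit to all 26 (1067 at an unadjusted p under 0.05), and 296 to 398 with 1 basal library left out. The pool cannot be a fixed block here, since each pool has 1 age. The 59 genes of the basal over luminal difference became 409 without the filter, 229 with DESeq2, 37 with only the libraries compared, 129 with the pool as a fixed replicate block, 62 with it as a random one, 0 with 26 libraries (296 at an unadjusted p under 0.05) and 0 with 24 (601), and 13 to 124 with 1 library left out. The 42 of the basal over stromal difference became 421, 223 and 34 under the same first 3 settings, 82 with the pool as a fixed and 90 as a random replicate block, 0 with 26 libraries (371 at an unadjusted p under 0.05) and 0 with 24 (772), and 0 to 112 with 1 library left out (112 without stromal A1, 84 of them lower). The fits to 26 and 24 libraries had a larger spread, with a biological coefficient of variation of 0.485 and 0.403, against 0.276, and the cause of the other shifts was not tested. Of the 93 genes picked by the rule and called in basal cells, 91 kept the call under RLE scaling, 89 without the filter, 93 with DESeq2, 83 with only the basal libraries, 90 with the random block (Apeh, at an adjusted p of 0.0502, Col5a3 and Mrc1 lost it), 14 with 24 libraries and 0 with 26. They numbered 57 without A1, 44 without A2, 53 without F79 and 44 without F81, and none changed sign. Ctgf, which was not called, ran between -0.30 and 0.85 with 1 basal library left out and changed sign without F81. The random block moved the calls of the lists of matrix genes to 4, of Notch and circadian genes to 4 each, of milk and senescence genes to 2 each and of leukocyte genes to 0.

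With 2 pools of 3 mice at each age, spread between single mice was not measured. Of the basal libraries A1 had the fewest counts, 3203664, so that low genes there carry the largest counting error. In F79 the low levels of Lsmem1, Itih2, Tnf and Gdf15 rest on few counts too. Age, pool and any unlabelled batch cannot be told apart. Levels were compared between libraries gene by gene, not between genes, and how the counting treated near-identical copies such as Hspa1a and Hspa1b is unknown.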

Other observations

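The gene lists not described above gave 0 or 1 call each in basal cells, beside rises in 3.9% and falls in 1.07% of all genes tested. Of 7 tested Schwann cell genes 1 fell and of 7 lymphatic endothelial genes 1 rose. Cdh19, a cadherin of Schwann cells, had 0 and 0 CPM at 12 months, against 4.65 and 5.08 CPM at 3 months. Prox1, the transcription factor of lymphatic vessels, had 28.2 and 13.97 CPM at 12 months, against 7.82 and 1.56 CPM at 3 months. Its log2 fold change was 2.31 ± 0.61, adjusted p = 0.0479. Both were named after their values were seen. edgeR called 0 of 13 regulators and marks of the epithelial-mesenchymal transition (4 at an unadjusted p under 0.05, 0 with DESeq2 and 1 with limma voom), although 11 had positive log2 fold changes (median 0.56). It called 0 of 16 genes used as marks of repopulating basal cells (2 at an unadjusted p under 0.05, 0 with DESeq2 and 1 with limma voom), with a median of -0.11. It also called 0 of 14 genes of the mitochondrial genome (1 at an unadjusted p under 0.05, 0 with DESeq2 and limma voom), with a median of -0.32. Of skeletal muscle genes 6 of 12 were tested, of lymphocyte genes 1 of 14 and of erythroid genes 1 of 6. Of these edgeR, DESeq2 and limma voom each called 0 genes, with 1, 0 and 0 at an unadjusted p under 0.05.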
